A study of Mus musculus with 15 samples.

Results

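The type I interferon response was followed through a list of 36 genes in macrophages sorted from mouse liver. The list holds the receptor chains, the transcription factors that carry the signal, and genes that interferon is known to induce. Members were found on the arrays through the RefSeq accession of each probe. Of the 36 genes, 34 had a matched probe, with 46 probes among them, and the other two, Mx1 and Mx2, have no value here. All 34 were well above background on all 15 arrays and were tested, among 13390 genes tested in all.

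The study compared liver macrophages with a high level of the surface antigen encoded by Adgre1 after sorting them on CD11c, an integrin encoded by Itgax, using Agilent one-colour arrays. There were 3 groups of 5 arrays. The first, labelled MC4R_WD CD11c-positive, and the second, labelled MC4R_WD CD11c-negative, came from male mice that lack the melanocortin 4 receptor (MC4R-KO), an appetite-regulating receptor whose loss leads to obesity. These mice were 8 weeks old when a Western diet began and ate it for 20 weeks, and their livers had non-alcoholic steatohepatitis (NASH). The third, WT_SD, held CD11c-negative macrophages of male wildtype mice on standard diet with normal livers. The strain and the age of the wildtype mice are not given in the sources used here. All mice of the NASH groups lacked the receptor and all received the diet, so the effects of genotype and diet cannot be told apart, and no CD11c-positive wildtype cells are among the samples. Each sample held RNA from the pooled macrophages of 7 to 9 animals. Nothing in the labels says whether the samples of a group came from separate pools, so a p-value covers the spread among these samples only, and that spread may be technical.

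Itgax differed by 1.36 ± 0.033 on the log2 scale (SE) between CD11c-positive and CD11c-negative NASH macrophages, as the sort sets it. It also differed between the CD11c-negative groups, by 1.72 ± 0.033 in NASH against wildtype macrophages, although both carry the same sort label. The Mc4r probe did not stand well above background on any array and so checks no label. The array signal at the 75th percentile lay between 359 and 562, and 45.8% to 58.0% of spots were well above background. The arrays lay on 2 slides, each holding all 3 groups, with scan time and slide one and the same. In bulk RNA of sorted cells, fewer cells of a type and less RNA per cell cannot be told apart.

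Type I interferons bind a receptor of the chains Ifnar1 and Ifnar2, whose kinases phosphorylate STAT2. This joins IRF9 in a complex that binds the interferon-stimulated response element in promoters and switches on genes that block viral entry, translation and replication. Kupffer cells and other liver macrophages are known to respond to interferon and to sense nucleic acids.

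The response element is visible in the promoters of many of the 36 genes. RefSeq promoter windows of 300 bases (GRCm38.p6) were found for 28 of them. They were searched on both strands for the core of the element, GAAA followed by any 2 bases and GAAA again, and 13 of the 28 (46.4%) held it, against 3.99% of 27025 genes in the table. A stricter form, the core followed by CT, occurred in 7 of 28 (25.0%), against 0.303% of all genes. The gamma-activated site TTCNNNGAA, which STAT dimers bind, occurred in 10 of 28 (35.7%), against 9.55%. A match is a run of letters and not a measured site of binding.

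The first 5 promoters below hold the core and belong to genes that moved in different directions, and a sixth belongs to the gene with the largest change. Capitals mark matches of the core on either strand, and matches that overlap run together. Isg15, Oas1a and Bst2 were higher in NASH macrophages than in wildtype ones, and their windows lie at chr4:156200769-156201068 (minus strand), chr5:120907476-120907775 (minus strand) and chr8:71537423-71537722 (minus strand).
Isg15: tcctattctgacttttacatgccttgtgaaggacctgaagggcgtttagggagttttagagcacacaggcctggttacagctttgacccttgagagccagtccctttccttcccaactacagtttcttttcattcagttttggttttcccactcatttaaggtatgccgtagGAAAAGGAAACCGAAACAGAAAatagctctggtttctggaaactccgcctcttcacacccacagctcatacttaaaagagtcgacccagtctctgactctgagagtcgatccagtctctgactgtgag
Oas1a: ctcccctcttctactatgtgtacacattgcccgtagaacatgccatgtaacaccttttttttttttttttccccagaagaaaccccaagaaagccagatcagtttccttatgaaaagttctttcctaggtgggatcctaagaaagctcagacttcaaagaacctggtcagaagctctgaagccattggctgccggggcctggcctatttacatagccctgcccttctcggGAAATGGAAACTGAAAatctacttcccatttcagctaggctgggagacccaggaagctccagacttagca
Bst2: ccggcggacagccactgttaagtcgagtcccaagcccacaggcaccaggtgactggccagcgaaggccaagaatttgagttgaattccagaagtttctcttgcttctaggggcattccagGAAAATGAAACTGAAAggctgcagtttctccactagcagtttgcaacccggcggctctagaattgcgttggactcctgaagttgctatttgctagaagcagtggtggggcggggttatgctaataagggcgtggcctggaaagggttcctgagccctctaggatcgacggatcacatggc
Ifit3 and Ifitm3 were lower in NASH macrophages, and their windows lie at chr19:34583279-34583578 (plus strand) and chr7:141010695-141010994 (minus strand).
Ifit3: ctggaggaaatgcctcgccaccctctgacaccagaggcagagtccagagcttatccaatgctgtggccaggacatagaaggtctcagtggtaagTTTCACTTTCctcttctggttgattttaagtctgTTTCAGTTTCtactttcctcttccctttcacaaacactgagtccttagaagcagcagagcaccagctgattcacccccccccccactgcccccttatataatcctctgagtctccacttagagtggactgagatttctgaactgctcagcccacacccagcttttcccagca
Ifitm3: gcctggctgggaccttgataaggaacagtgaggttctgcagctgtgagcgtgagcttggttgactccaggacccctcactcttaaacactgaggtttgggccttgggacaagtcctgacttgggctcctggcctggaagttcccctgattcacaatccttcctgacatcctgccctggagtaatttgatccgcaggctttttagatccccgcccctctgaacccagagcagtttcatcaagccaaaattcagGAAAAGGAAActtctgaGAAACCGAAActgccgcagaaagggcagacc
Ifi44, with the largest rise, has its window at chr3:151749861-151750160 (minus strand), where these letters of the core were not found.
Ifi44: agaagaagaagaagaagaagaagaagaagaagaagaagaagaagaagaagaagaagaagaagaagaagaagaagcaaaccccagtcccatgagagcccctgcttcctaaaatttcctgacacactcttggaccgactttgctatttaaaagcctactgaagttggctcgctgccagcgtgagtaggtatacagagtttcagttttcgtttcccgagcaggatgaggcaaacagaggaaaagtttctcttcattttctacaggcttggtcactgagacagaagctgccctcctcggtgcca

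The first comparison asked how CD11c-negative macrophages of NASH livers differ from those of healthy livers. Of the 34 genes, 24 were higher, 7 were lower and 3 did not pass an adjusted p of 0.05. Over all genes tested, 76.8% passed, 48.3% higher and 28.5% lower. The members' median log2 fold change was 0.28, against 0.13 over all genes. Ifi44 rose most, by 1.57 ± 0.042 (log2, SE), followed by the virion-tethering protein Bst2 (0.86 ± 0.049), the nucleic acid sensor Zbp1 (0.80 ± 0.023) and the ubiquitin-like protein Isg15 (0.76 ± 0.034). The largest falls were in Oas2 (-0.56 ± 0.028), Irf1 (-0.31 ± 0.031), Stat2 (-0.30 ± 0.045) and Ifit3 (-0.24 ± 0.029). For 28 of the 34 genes no array of one group reached into the range of the other, against 64.1% of all genes. Ifi44 alone changed by at least 2-fold, where 5.18% of all genes did so upwards and 6.22% downwards.

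The second comparison asked how the CD11c-positive cells of the same disease differ from the CD11c-negative ones. Here 5 genes were higher, 16 were lower and 13 did not pass. Over all genes tested, 53.1% passed, 29.9% higher and 23.2% lower. The members' median was -0.06, against 0.01 over all genes, and none changed by 2-fold, where 1.66% of all genes did so upwards and 1.19% downwards. The largest falls were in the entry-blocking membrane protein Ifitm3 (-0.56 ± 0.025), Zbp1 (-0.52 ± 0.023), Irf1 (-0.37 ± 0.031) and Irf7 (-0.37 ± 0.082). The receptor chain Ifnar1 rose by 0.41 ± 0.027, Trim25 by 0.38 ± 0.067, Eif2ak2 by 0.25 ± 0.026, Oas3 by 0.22 ± 0.062 and Rsad2 by 0.12 ± 0.039. Arrays did not overlap for 17 of the 34 genes, against 39.5% of all genes.

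The third comparison set CD11c-positive NASH macrophages against wildtype macrophages, so that genotype, diet and sort gate differ together. It shares a group with each of the other comparisons. In it 21 genes were higher, 6 were lower and 7 did not pass, and over all genes 77.6% passed, 51.4% higher and 26.3% lower. The median was 0.22, against 0.16 over all genes. Ifi44 rose by 1.55 ± 0.042, Bst2 by 0.71 ± 0.049, Oas3 by 0.67 ± 0.062 and Ifnar1 by 0.67 ± 0.027. Ifitm3 (-0.68 ± 0.025), Irf1 (-0.68 ± 0.031), Oas2 (-0.62 ± 0.028) and Ifit3 (-0.43 ± 0.029) fell most. Arrays did not overlap for 26 genes, against 69.3% of all genes. At this scaling and on the brightest probes Ifi44 alone again passed 2-fold (6.65% of all genes upwards, 7.02% downwards). Over the other settings tried, Irf1 came down to -1.08 and Ifitm3 to -1.07, and Xaf1 ran from -0.08 to 1.16.

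**Figure D1:**
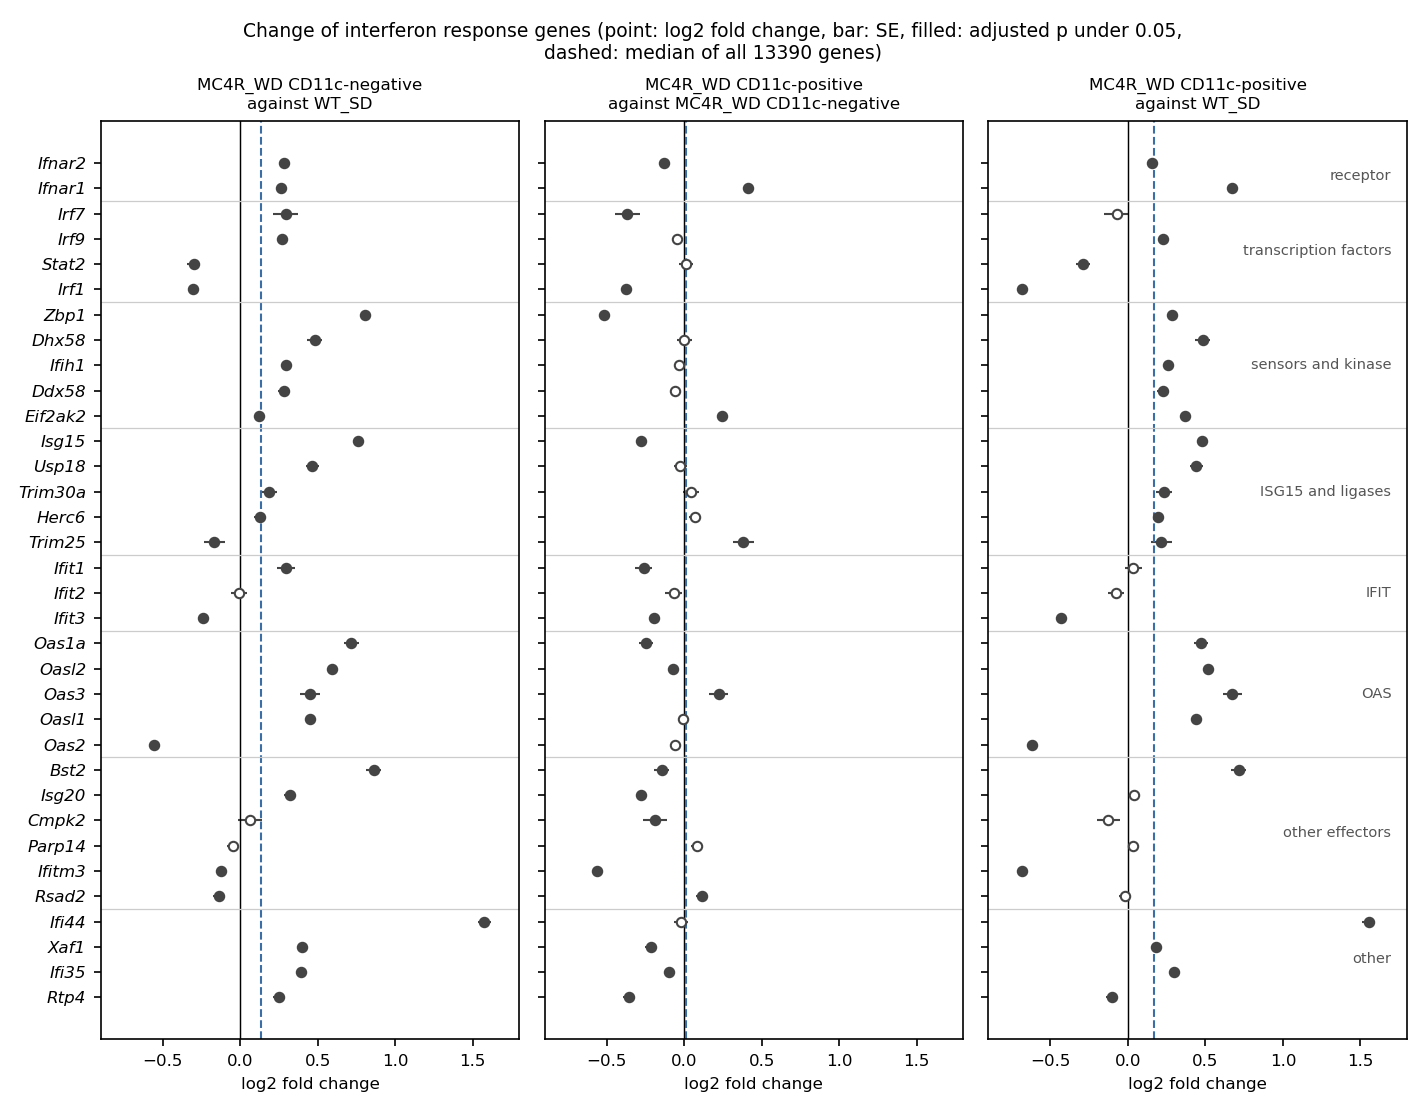
Log2 fold change of each of the 34 genes (rows, grouped by role) in the 3 comparisons (panels), with its standard error. Filled points passed an adjusted p of 0.05, and the dashed line is the median of all genes tested (0.13, 0.01 and 0.16). Most genes sit right of 0 in both comparisons with wildtype, Ifi44 stands far to the right, and Oas2, Irf1, Stat2, Ifit3 and Ifitm3 sit left of 0 in both.

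The split between higher and lower genes against wildtype depends on how the arrays are scaled. Signals were scaled to the 75th percentile of each array. After quantile normalization, which forces the same distribution on all arrays, the median of all genes was 0.00 rather than 0.13 in CD11c-negative NASH against wildtype macrophages, and 0.05 rather than 0.16 in CD11c-positive NASH against wildtype macrophages. The share of all passing genes that were higher dropped to 49.0% from 62.9% in the first of these comparisons, and to 54.4% from 66.2% in the other. Among the members, 15 were then higher and 11 lower in CD11c-negative NASH macrophages, where 36.1% of all genes were higher and 37.6% lower. In CD11c-positive ones 12 were higher and 16 lower, against 40.7% and 34.1% of all genes. The comparison of the 2 NASH groups moved little, with 6 higher and 16 lower, against 32.7% and 21.9% of all genes.

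Some members passed in the same direction under every setting tried, the quantile scaling and each left-out array included. The share of all genes that did so was not counted, so these counts have no background beside them. In CD11c-negative NASH against wildtype macrophages these were 14 higher genes: Ifi44, Zbp1, Bst2, Isg15, Usp18, Dhx58, Oas1a, Oas3, Oasl1, Oasl2, Ifit1, Isg20, Xaf1 and Ifi35. The 5 lower ones were Oas2, Irf1, Stat2, Ifit3 and Ifitm3. Over all settings tried, these falls ran from -0.55 to -0.93 in Oas2, -0.25 to -0.77 in Irf1 and -0.27 to -0.60 in Stat2. They ran from -0.23 to -0.53 in Ifit3 and -0.10 to -0.59 in Ifitm3. In CD11c-positive NASH against wildtype macrophages, 12 genes were higher under every setting: Ifi44, Bst2, Ifnar1, Oas1a, Oas3, Oasl1, Oasl2, Dhx58, Eif2ak2, Isg15, Usp18 and Herc6. The same 5 genes were lower. Between CD11c-positive and CD11c-negative NASH macrophages, 4 were higher (Ifnar1, Trim25, Eif2ak2 and Oas3) and 10 lower (Ifitm3, Zbp1, Irf1, Irf7, Rtp4, Isg15, Isg20, Ifit1, Ifit3 and Oas1a).

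**Figure D2:**
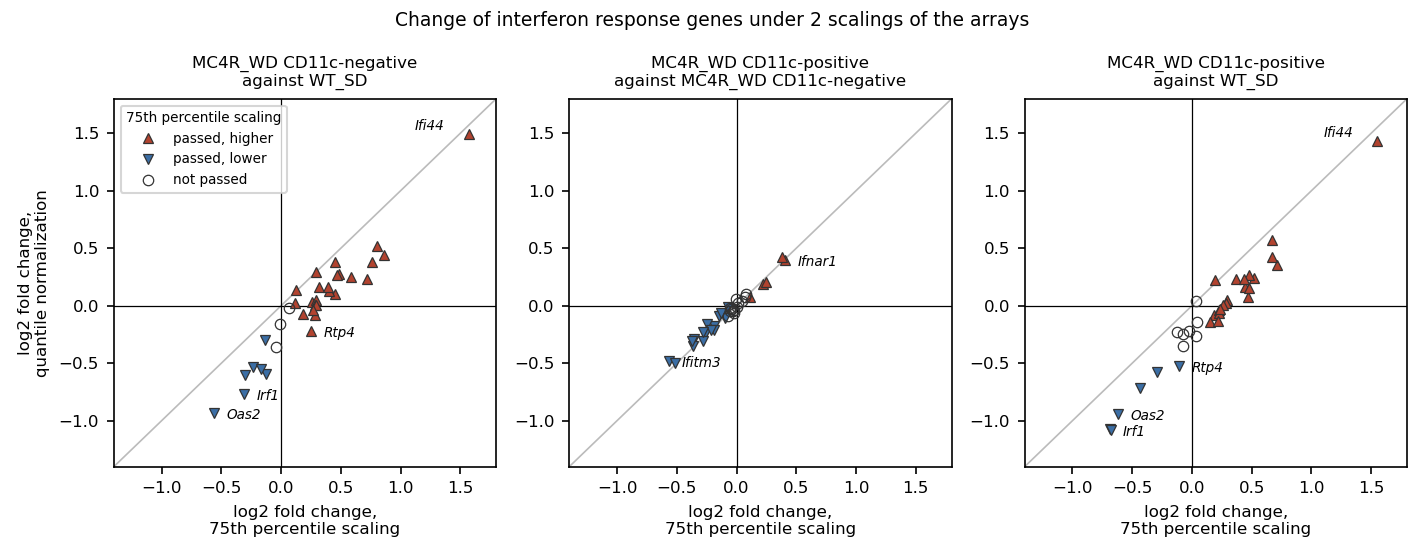
Log2 fold change of each gene after quantile normalization (vertical axis) against that after scaling to the 75th percentile (horizontal axis), 1 panel per comparison. Points below the grey diagonal are lower after quantile normalization. Against wildtype nearly all points lie below it and some cross 0, such as Rtp4 in CD11c-negative NASH macrophages (0.25 and then -0.22), while the points of the 2 NASH groups lie on it.

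By role, the receptor chains come first. On its brightest probe Ifnar1, the chain that binds the kinase Tyk2, had normalized log2 signals of 3.47, 3.40, 3.49, 3.47 and 3.42 in CD11c-positive NASH macrophages, 3.05, 3.03, 3.00, 3.07 and 3.06 in CD11c-negative ones, and 2.82, 2.75, 2.72, 2.80 and 2.80 in wildtype macrophages. Here and below, this signal is log2 of the processed signal less the array's 75th percentile. The 3 groups did not overlap, with the CD11c-positive cells highest (adjusted p = 1.39e-08 against CD11c-negative and 9.40e-12 against wildtype macrophages). After quantile normalization the difference of CD11c-negative NASH from wildtype macrophages was 0.03, against 0.26 ± 0.027 before. Ifnar2, the other chain, went the other way between the NASH groups, with -0.13 ± 0.031 in CD11c-positive against CD11c-negative cells (adjusted p = 0.00325). Against wildtype macrophages its sign depended on the scaling: 0.15 and -0.14 in CD11c-positive cells, and 0.28 and -0.08 in CD11c-negative cells, at the 75th percentile and after quantile normalization.

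The transcription factors did not move together. Irf1, which interferon gamma induces strongly and which drives its own set of genes, had signals of 5.94, 5.95, 5.97, 5.90 and 6.01 in CD11c-positive NASH macrophages, 6.31, 6.33, 6.24, 6.35 and 6.40 in CD11c-negative ones, and 6.64, 6.59, 6.67, 6.64 and 6.62 in wildtype macrophages. The order was wildtype highest and CD11c-positive lowest with no overlap, and each step passed (adjusted p = 1.79e-07 between the NASH groups and 3.94e-07 for CD11c-negative NASH against wildtype). Stat2, a subunit of the complex that binds the response element, had 3.96, 3.97, 4.01, 4.03 and 4.07 in CD11c-positive NASH macrophages, 3.98, 3.98, 3.87, 4.08 and 4.08 in CD11c-negative ones, and 4.25, 4.23, 4.27, 4.37 and 4.37 in wildtype macrophages. Both NASH groups lay below the wildtype arrays (adjusted p = 3.24e-05 and 2.26e-05) and overlapped each other (0.01 ± 0.045, adjusted p = 0.84).

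Irf7, the factor that amplifies interferon production, had 3.74, 3.74, 4.00, 3.96 and 3.96 in CD11c-positive NASH macrophages, 4.14, 4.13, 4.15, 4.39 and 4.42 in CD11c-negative ones, and 3.82, 3.83, 3.92, 4.09 and 4.10 in wildtype macrophages. CD11c-negative NASH cells were above both other groups (0.29 ± 0.082 over wildtype, adjusted p = 0.00483), and the CD11c-positive and wildtype arrays overlapped (-0.07 ± 0.082). After quantile normalization the excess over wildtype was 0.01. Its arrays of slide 2 read 0.24 ± 0.017 above those of slide 1, by 0.24, 0.26 and 0.24 in the CD11c-positive, CD11c-negative and wildtype groups. Within each slide the CD11c-positive and wildtype arrays did not overlap, and with slide as a block CD11c-positive NASH cells had -0.12 against wildtype and passed (adjusted p = 8.20e-05). Irf9, the DNA-binding partner of STAT2 in the complex, had 0.27 ± 0.022 in CD11c-negative and 0.23 ± 0.022 in CD11c-positive NASH against wildtype macrophages, which became -0.04 and -0.06 after quantile normalization.

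The sensors were all higher in both NASH groups than in wildtype macrophages at the 75th percentile scaling, and only some held under the other. Zbp1, which binds Z-form nucleic acid and can start necroptosis, had 3.87, 3.90, 3.88, 3.88 and 3.89 in CD11c-positive NASH macrophages, 4.40, 4.38, 4.40, 4.43 and 4.40 in CD11c-negative ones, and 3.54, 3.57, 3.62, 3.62 and 3.64 in wildtype macrophages. The CD11c-negative NASH arrays stood apart at the top (adjusted p = 2.89e-13 against wildtype), and the CD11c-positive ones lay between. After quantile normalization the CD11c-negative cells remained 0.52 above wildtype ones, while for the CD11c-positive cells 0.29 became 0.02. Eif2ak2 (PKR), the RNA-activated kinase that halts translation, had 1.76, 1.75, 1.73, 1.69 and 1.73 in CD11c-positive NASH macrophages, 1.55, 1.48, 1.43, 1.47 and 1.50 in CD11c-negative ones, and 1.40, 1.34, 1.35, 1.39 and 1.35 in wildtype macrophages. Its highest arrays were the CD11c-positive ones, without overlap (adjusted p = 1.84e-06 against CD11c-negative cells).

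Among the RNA helicases that sense viral RNA in the cytosol, Dhx58 (LGP2) had 0.48 ± 0.049 in both NASH groups against wildtype macrophages, and 0.27 and 0.28 after quantile normalization in CD11c-positive and CD11c-negative cells. Ifih1 (MDA5) had 0.26 and 0.29, and Ddx58 (RIG-I) 0.23 and 0.28, in CD11c-positive and CD11c-negative NASH cells against wildtype. None of these 4 values of Ifih1 and Ddx58 passed after quantile normalization, and that of Ddx58 in CD11c-positive cells turned to -0.04. With the mean of its probes, Ifih1 had 0.15 in CD11c-positive NASH against wildtype cells and no longer passed (adjusted p = 0.0805). Between the NASH groups none of the 3 helicases passed, except Ddx58 under 2 alternatives. Ddx58 had -0.07 with slide as a block (adjusted p = 0.0121) and -0.08 with replicate number and slide as blocks (adjusted p = 0.0119).

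Isg15 and its machinery were next. Isg15, a ubiquitin-like protein that is attached to other proteins and also secreted, had 5.59, 5.55, 5.67, 5.63 and 5.63 in CD11c-positive NASH macrophages, 5.88, 5.86, 5.82, 5.98 and 5.94 in CD11c-negative ones, and 5.14, 5.19, 5.09, 5.15 and 5.12 in wildtype macrophages. The groups did not overlap, with CD11c-negative NASH cells highest (adjusted p = 3.76e-11 against wildtype and 7.00e-06 for CD11c-positive against CD11c-negative cells). Usp18, the protease that removes Isg15 and also shuts off the receptor, had 0.44 ± 0.043 in CD11c-positive and 0.46 ± 0.043 in CD11c-negative NASH against wildtype macrophages, and -0.02 between the NASH groups (adjusted p = 0.649). Herc6, the main ligase for Isg15 in mice, rose by 0.20 ± 0.036 in CD11c-positive and 0.13 ± 0.036 in CD11c-negative cells against wildtype.

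Trim25, a ubiquitin ligase that acts on RIG-I, had 5.44, 5.40, 5.62, 5.58 and 5.63 in CD11c-positive NASH macrophages, 5.12, 5.13, 4.98, 5.26 and 5.27 in CD11c-negative ones, and 5.28, 5.18, 5.30, 5.45 and 5.39 in wildtype macrophages. The NASH groups were separated, with CD11c-positive cells higher (adjusted p = 2.38e-04), and both overlapped the wildtype arrays. The Trim25 arrays of slide 2 read 0.18 above those of slide 1, and within each slide the 3 groups did not overlap. CD11c-negative NASH cells had -0.17 against wildtype and passed as lower, a call lost in 6 of the alternatives run. Over all settings tried this Trim25 value ran from -0.12 to -0.55. Against wildtype, its 0.22 ± 0.067 in CD11c-positive cells became -0.13 after quantile normalization. Trim30a, another ligase of that family, had 0.23 and 0.19 in CD11c-positive and CD11c-negative NASH against wildtype macrophages, which became -0.03 and -0.07.

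**Figure D3:**
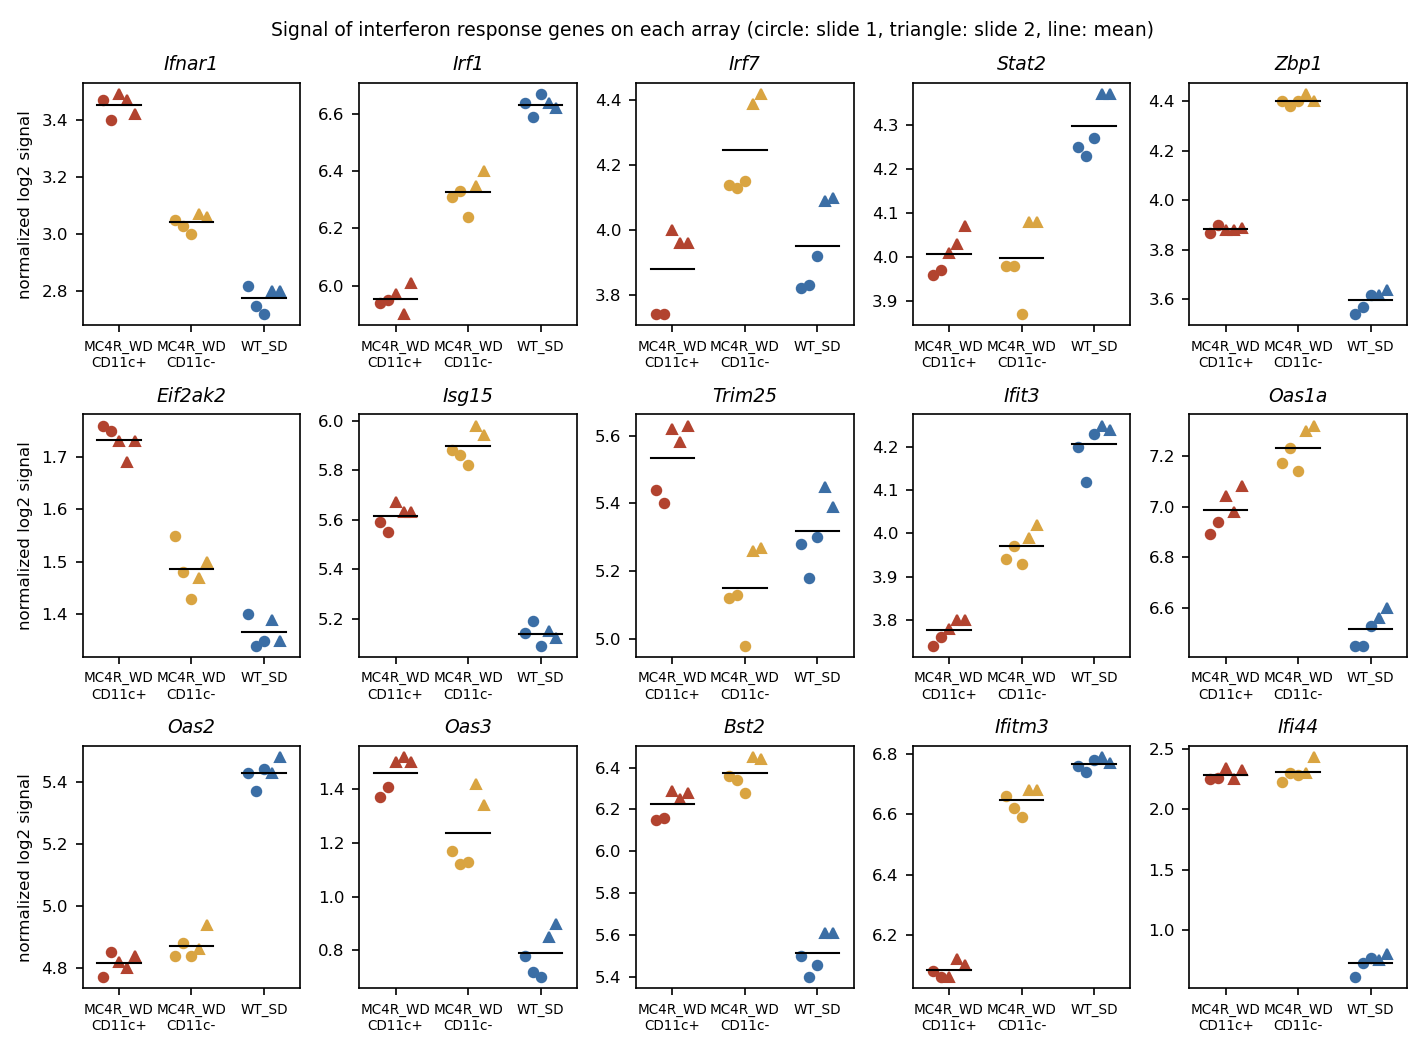
Normalized log2 signal (vertical axes, each with its own range) of 15 of the genes on every array of the 3 groups. Circles are arrays of slide 1, triangles those of slide 2, and lines are group means. Ifi44 separates both NASH groups from wildtype, Zbp1 and Isg15 peak in CD11c-negative NASH cells, Ifnar1 and Eif2ak2 in CD11c-positive ones, and Oas2, Irf1, Stat2, Ifit3 and Ifitm3 in wildtype cells.

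The IFIT proteins, which bind foreign RNA and block its translation, differed from one another. Ifit3 had 3.74, 3.76, 3.78, 3.80 and 3.80 in CD11c-positive NASH macrophages, 3.94, 3.97, 3.93, 3.99 and 4.02 in CD11c-negative ones, and 4.20, 4.12, 4.23, 4.25 and 4.24 in wildtype macrophages. It ran in the order of Irf1, wildtype highest and CD11c-positive lowest, with no overlap (adjusted p = 7.13e-05 between the NASH groups). Its value is uncertain to the extent that its probe shares sequence with the near-identical Ifit3b, whose own probe gave -0.66 ± 0.033 in CD11c-positive and -0.57 ± 0.033 in CD11c-negative NASH against wildtype macrophages. Ifit1 was highest in CD11c-negative NASH cells: it had 0.29 ± 0.056 over wildtype (adjusted p = 2.36e-04), and -0.26 ± 0.056 in CD11c-positive against CD11c-negative cells. Ifit2 did not pass, with -0.08 in CD11c-positive and -0.01 in CD11c-negative NASH against wildtype cells and -0.07 between the NASH groups. Its arrays of slide 2 read 0.15 above those of slide 1. With slide as a block, CD11c-positive NASH cells passed as lower, by -0.11 against wildtype (adjusted p = 7.17e-05) and -0.10 against CD11c-negative NASH cells (adjusted p = 3.00e-04), and quantile normalization made all 3 comparisons pass as lower.

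The oligoadenylate synthetases make a short messenger that activates an RNA-degrading enzyme. Of the 5 family members, 4 rose and Oas2 fell in both NASH groups against wildtype and passed under both scalings, with smaller rises after quantile normalization. Oas1a came down to 0.08 in CD11c-positive and 0.23 in CD11c-negative NASH cells against wildtype, where scaling to the 75th percentile gave 0.47 ± 0.046 and 0.72 ± 0.046. Oas1a had 6.89, 6.94, 7.04, 6.98 and 7.08 in CD11c-positive NASH macrophages, 7.17, 7.23, 7.14, 7.30 and 7.32 in CD11c-negative ones, and 6.45, 6.45, 6.53, 6.56 and 6.60 in wildtype macrophages. CD11c-negative NASH cells were highest without overlap (adjusted p = 2.74e-09 over wildtype). The value is uncertain to the extent that the close paralogue Oas1g shares the probe.

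Oas2 showed the opposite pattern, with 4.77, 4.85, 4.82, 4.80 and 4.84 in CD11c-positive NASH macrophages, 4.84, 4.88, 4.84, 4.86 and 4.94 in CD11c-negative ones, and 5.43, 5.37, 5.44, 5.43 and 5.48 in wildtype macrophages. Both NASH groups lay far below wildtype (adjusted p = 4.31e-11 and 1.66e-10) and overlapped each other. Oas3, the longest of the synthetases, had 1.37, 1.41, 1.50, 1.52 and 1.50 in CD11c-positive NASH macrophages, 1.17, 1.12, 1.13, 1.42 and 1.34 in CD11c-negative ones, and 0.78, 0.72, 0.70, 0.85 and 0.90 in wildtype macrophages. Its CD11c-positive arrays were highest, with some overlap between the NASH groups (adjusted p = 0.00737). Oasl1, which in mice also restrains translation of Irf7, had 0.44 and 0.45 in CD11c-positive and CD11c-negative NASH against wildtype macrophages, and 0.16 and 0.10 after quantile normalization. Oasl2, its relative, had 0.52 and 0.59, and then 0.24 and 0.25.

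Other antiviral effectors went both ways. Bst2 (tetherin), which holds virions at the cell surface, had 6.15, 6.16, 6.29, 6.25 and 6.28 in CD11c-positive NASH macrophages, 6.36, 6.34, 6.28, 6.45 and 6.44 in CD11c-negative ones, and 5.50, 5.40, 5.46, 5.61 and 5.61 in wildtype macrophages. Both NASH groups were above all wildtype arrays (adjusted p = 4.76e-09 and 6.72e-10) and overlapped each other. CD11c-positive cells had -0.15 against CD11c-negative ones and passed as lower, a call lost in 4 of the alternatives run. The Bst2 arrays of slide 2 read 0.13 above those of slide 1, and within each slide the NASH groups did not overlap. Ifitm3 had 6.08, 6.06, 6.06, 6.12 and 6.10 in CD11c-positive NASH macrophages, 6.66, 6.62, 6.59, 6.68 and 6.68 in CD11c-negative ones, and 6.76, 6.74, 6.78, 6.79 and 6.77 in wildtype macrophages. The CD11c-positive arrays stood apart at the bottom (adjusted p = 1.58e-10 against CD11c-negative cells and 2.95e-12 against wildtype). CD11c-negative NASH cells were lower than wildtype without overlap (-0.12 ± 0.025), and this step ran from -0.10 to -0.59 over all settings tried.

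Isg20, an RNA-degrading exonuclease, rose by 0.32 ± 0.034 in CD11c-negative NASH against wildtype macrophages, and CD11c-positive NASH cells had -0.28 ± 0.034 against CD11c-negative ones (adjusted p = 7.66e-06). Rsad2 (viperin), which makes an antiviral nucleotide, had -0.14 ± 0.039 in CD11c-negative NASH against wildtype cells and -0.02 in CD11c-positive ones against wildtype (adjusted p = 0.638). Parp14, an ADP-ribosyltransferase, did not pass at the settings used here. It passed with slide as a block between the NASH groups (0.06, adjusted p = 0.0141) and in CD11c-negative NASH against wildtype cells (-0.05, adjusted p = 0.0445), and with replicate number as a block between the NASH groups (0.08, adjusted p = 0.0113). Quantile normalization put it at -0.26 in CD11c-positive and -0.36 in CD11c-negative NASH against wildtype cells, both passing. Cmpk2, a mitochondrial nucleotide kinase, had -0.19 ± 0.075 in CD11c-positive against CD11c-negative NASH cells, just past the threshold (adjusted p = 0.0478). That call was lost in 17 of the alternatives run, among them slide as a block (adjusted p = 0.0568) and leaving out any one array of either NASH group. Against wildtype its 0.06 in CD11c-negative NASH cells did not pass, and it became 0.16 and passed without wildtype array 3, which stood apart (adjusted p = 9.31e-05). Its dimmer probe passed in both comparisons with wildtype, with -0.25 ± 0.059 in CD11c-positive and -0.15 ± 0.059 in CD11c-negative NASH cells (adjusted p = 0.00138 and 0.033 over probes).

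The last set has less settled roles. Ifi44, an interferon-induced cytoplasmic protein, had 2.25, 2.26, 2.34, 2.25 and 2.32 in CD11c-positive NASH macrophages, 2.22, 2.30, 2.28, 2.30 and 2.43 in CD11c-negative ones, and 0.61, 0.73, 0.77, 0.75 and 0.80 in wildtype macrophages. The NASH groups overlapped (-0.02 ± 0.042, adjusted p = 0.704), and both were far above wildtype, by 2.93-fold and 2.98-fold (adjusted p = 1.25e-13 and 1.49e-13). On the log2 scale the rise was 1.43 in CD11c-positive and 1.49 in CD11c-negative cells after quantile normalization. Rtp4, an interferon-induced transporter protein, had -0.35 ± 0.039 in CD11c-positive against CD11c-negative NASH cells (adjusted p = 2.86e-06). Ifi35 had 0.30 and 0.39 in CD11c-positive and CD11c-negative NASH against wildtype cells. After quantile normalization these were 0.05, which no longer passed (adjusted p = 0.105), and 0.16, which did.

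Xaf1, which binds an inhibitor of apoptosis, gave different answers on its probes. On the brighter probe, which stands for the gene, the arrays ran from 3.41 to 3.50 in CD11c-positive NASH macrophages, from 3.54 to 3.73 in CD11c-negative ones and from 3.22 to 3.31 in wildtype macrophages. CD11c-positive cells were thus 0.22 lower than CD11c-negative ones on the log2 scale (SE 0.036). On the dimmer probe they ran from -0.02 to 0.17 in CD11c-positive cells, from -1.94 to -1.61 in CD11c-negative ones and from -2.20 to -1.93 in wildtype cells. That probe put CD11c-positive cells 1.87 ± 0.064 above CD11c-negative ones (adjusted p = 2.51e-11 over probes), and the mean of both probes put them 0.83 above. Both carry the same RefSeq accession, and which transcript each reads was not tested.

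For 11 of the 34 genes more than 1 probe was matched. The 3 probes of Ifnar1 all rose in CD11c-negative NASH against wildtype cells, by 0.26, 0.43 and 0.75, but between the NASH groups the probe that stands for the gene had 0.41 and the others 0.16 and 0.10, the last with an adjusted p of 0.129. The second probe of Ddx58 had -0.01 ± 0.044 in CD11c-negative NASH against wildtype cells, where the brighter one had 0.28.

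**Figure D4:**
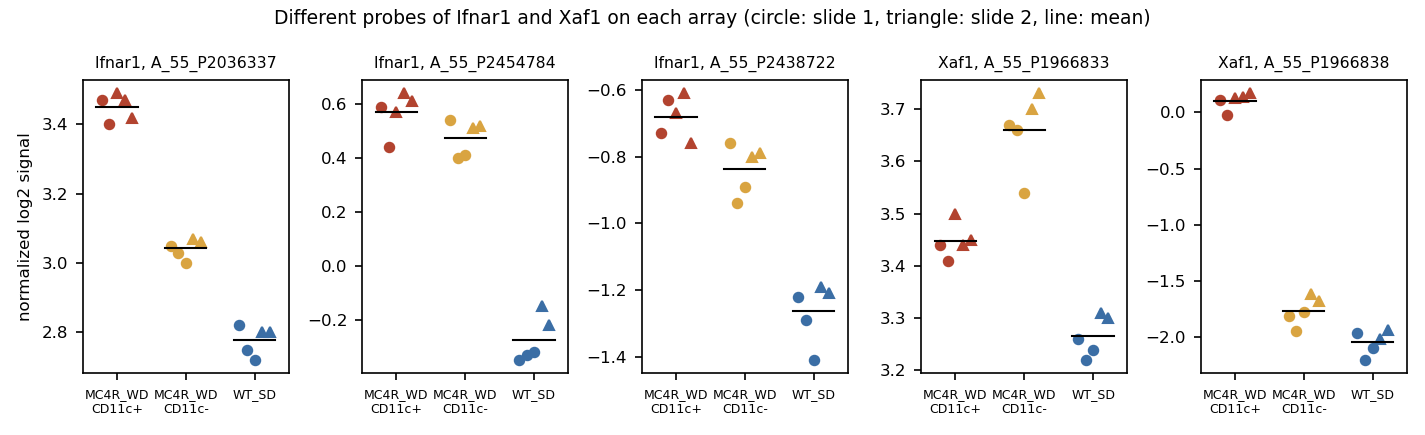
Normalized log2 signal (vertical axes, each with its own range) of the 3 probes of Ifnar1 and the 2 probes of Xaf1 on every array, with group means as lines, circles for slide 1 and triangles for slide 2. All Ifnar1 probes put both NASH groups above wildtype. The brighter Xaf1 probe peaks in CD11c-negative NASH cells, the dimmer one in CD11c-positive ones.

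By group mean, 8 of the 34 genes were highest in CD11c-positive NASH macrophages, 19 in CD11c-negative ones and 7 in wildtype macrophages. The 8 were Ifnar1, Eif2ak2, Dhx58, Oas3, Trim25, Trim30a, Herc6 and Parp14. The 7 were Ifit2, Ifit3, Oas2, Ifitm3, Rsad2, Irf1 and Stat2. Some neighbours in these orders did not differ beyond their spread, as given above. Within a group the genes varied little: the median SD over arrays was 0.042 in CD11c-positive, 0.068 in CD11c-negative and 0.051 in wildtype cells, and the highest was that of Cmpk2 in wildtype cells (0.215).

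The changes of genes with and without the core of the response element were set side by side, with no test. The 13 measured genes with it had medians of 0.28, -0.06 and 0.23 in CD11c-negative NASH against wildtype, CD11c-positive against CD11c-negative, and CD11c-positive NASH against wildtype macrophages. The 15 with a window and no match had 0.28, -0.07 and 0.20. In CD11c-negative NASH against wildtype cells 9 of the 13 were higher and 4 lower, and 11 of the 15 were higher and 2 lower. The promoters of Isg15 and Ifit3 printed above are examples of a higher and a lower gene with the core.

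With slide as a block, 24 members were higher and 8 lower in CD11c-negative NASH against wildtype cells (median 0.28), 6 and 19 in CD11c-positive against CD11c-negative cells (-0.08), and 21 and 8 in CD11c-positive NASH against wildtype cells (0.20). Over all genes, 51.4% were then higher and 30.7% lower, 32.9% and 29.7%, and 53.3% and 28.2%. Beside the genes named above, the block brought in Irf9 (-0.05, adjusted p = 0.0265) and Oas2 (-0.07, adjusted p = 0.031) in CD11c-positive against CD11c-negative cells. On slide 1 alone the counts were 23 and 7, 4 and 13, and 21 and 8, with medians of 0.27, -0.06 and 0.19, where 46.9% and 27.8%, 26.2% and 20%, and 48.2% and 24.3% of all genes were higher and lower. On slide 2 alone they were 24 and 7, 4 and 16, and 21 and 8, with medians of 0.29, -0.09 and 0.21, against 47.1% and 25.8%, 24.2% and 24%, and 50% and 25.4% of all genes. Between the slides themselves 19 of the 34 genes were higher on slide 2 and none lower, where 42% of all genes were higher and 8.75% lower. The median difference of the members between slides was 0.06, as was that of all genes.

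A further 120 genes of the pathway, listed by role, gave 107 with a value. In CD11c-negative NASH against wildtype cells 57 were higher and 27 lower (median 0.15), in CD11c-positive against CD11c-negative cells 25 and 33 (-0.03), and in CD11c-positive NASH against wildtype cells 61 and 32 (0.18). Over all genes, 48.3% were higher and 28.5% lower, 29.9% and 23.2%, and 51.4% and 26.3%. After quantile normalization the counts were 33 and 50, 32 and 31, and 41 and 53, so the direction of this wider set against wildtype depended on the scaling. The shares of all genes moved too, to 36.1% higher and 37.6% lower, 32.7% and 21.9%, and 40.7% and 34.1%.

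Of the interferons and their other receptors, 10 of 14 had a value. Ifnb1, the interferon beta gene, had a log2 fold change of 0.79 ± 0.048 in CD11c-positive and 0.99 ± 0.048 in CD11c-negative NASH against wildtype cells (adjusted p = 1.20e-09 and 1.17e-10), and of -0.20 ± 0.048 between the NASH groups. It was well above background on all arrays. Ifnl3, an interferon lambda gene, rose by 1.52 and 1.58 (SE 0.05) in CD11c-positive and CD11c-negative cells against wildtype. Ifnlr1, the lambda receptor chain, rose by 2.09 and 1.52 (SE 0.125), but was well above background on 4 of 5 wildtype arrays. Ifng, the interferon gamma gene of T and natural killer cells, fell by 1.00 and 1.55 (SE 0.064). The gamma receptor chain Ifngr1 fell by 0.34 and 0.24, and Ifngr2, its partner, had -0.21 ± 0.028 in CD11c-positive against CD11c-negative NASH cells. 

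Among signal transducers and regulators, the feedback inhibitor Socs3 rose by 1.36 and 1.46 (SE 0.036) in CD11c-positive and CD11c-negative NASH cells against wildtype, while its relative Socs1 fell by 0.70 and 0.55 (SE 0.034). Ifrd1, whose place in interferon signalling was not tested here, rose by 1.52 and 1.54, and the transcription factor Irf4 fell by 1.12 and 1.72. Between CD11c-positive and CD11c-negative NASH cells Stat4, a transducer of interleukin 12, had 0.63 ± 0.061 and Irf4 had 0.60 ± 0.062, whereas the phosphatase Ptpn6 had -0.18 ± 0.045 and Socs1 had -0.15 ± 0.034.

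Among the 20 sensors and adaptors of nucleic acid, Ticam1, the adaptor of Tlr3, rose by 1.01 and 0.81 (SE 0.048) and the kinase Ikbke by 0.76 and 0.66 (SE 0.034) in CD11c-positive and CD11c-negative NASH against wildtype cells. Trim56, a ubiquitin ligase, fell by 0.62 and 0.65 (SE 0.057). Tlr3, the receptor of double-stranded RNA, was higher in CD11c-positive than in CD11c-negative NASH cells by 0.72 ± 0.036, and CD11c-negative NASH cells had -0.65 ± 0.036 against wildtype cells. The adaptor Traf3 had 0.36 ± 0.036 between the NASH groups, Unc93b1, which escorts Toll-like receptors to endosomes, -0.23 ± 0.035 and the DNA sensor Ifi204 -0.21 ± 0.028. Tlr8 had -0.34 ± 0.055 in CD11c-positive NASH against wildtype cells.

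Other interferon-induced genes outside the list gave 32 higher and 12 lower of 59 in CD11c-negative NASH against wildtype cells, where 48.3% of all genes were higher and 28.5% lower. After quantile normalization the direction turned, with 16 higher and 30 lower, where 36.1% of all genes were higher and 37.6% lower. Adar, the RNA-editing enzyme, rose by 0.88 and 0.92 (SE 0.035) in CD11c-positive and CD11c-negative NASH cells against wildtype. The chemokine gene Cxcl9, a target of interferon gamma, had 1.09 ± 0.088 in CD11c-negative cells against wildtype, and Nampt had 0.77 ± 0.032 in CD11c-positive ones. Ifit1bl1, a relative of Ifit1, fell by 1.02 and 0.97 (SE 0.08). Helz2, a helicase, had -0.77 ± 0.041 in CD11c-negative NASH against wildtype cells. Between CD11c-positive and CD11c-negative NASH cells Nlrc5, an activator of class I genes, had 0.38 ± 0.025, Ifi30 0.28 ± 0.049, Cxcl10 -0.62 ± 0.023 and Gm4951 -0.70 ± 0.026. Gm4951 also had the largest fall of this list in CD11c-positive NASH against wildtype cells (-1.17 ± 0.026). The values printed for pathway genes outside the list kept their sign after quantile normalization.

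Markers of other cell types moved with the same groups. The following are sums of the linear signal of a list, in multiples of the array's 75th percentile. Neutrophil markers (9 of 10 measured) summed to 646 to 680 in CD11c-positive NASH, 1582 to 1733 in CD11c-negative NASH and 415 to 435 in wildtype macrophages. Monocyte markers (4 of 5) summed to 94.5 to 100.5, 163 to 177 and 71.3 to 77.3 in the same groups. Singly 3 of these 4 were higher and 1 lower in each NASH group than in wildtype cells. Between CD11c-positive and CD11c-negative NASH cells 1 was higher and 3 were lower. Both the neutrophil and the monocyte sums were highest in CD11c-negative NASH cells. There 19 of the 34 interferon genes were highest at the 75th percentile scaling, a count not made over all genes. Kupffer cell markers (7 of 7) summed to 1107 to 1208, 1421 to 1562 and 2415 to 2657, highest in wildtype cells. Plasmacytoid dendritic cell markers (8 of 8) summed to 175 to 214, 182 to 226 and 223 to 249, with the CD11c-negative NASH and wildtype ranges overlapping. Singly 3 of these 8 were higher and 4 lower in CD11c-positive NASH than in wildtype cells, and 2 higher and 6 lower in CD11c-negative NASH cells. T cell markers (6 of 7) summed to 15.6 to 19.3, 17.7 to 23.2 and 26.4 to 28.4. Singly 1 of these 6 was higher and 4 lower in each NASH group than in wildtype cells. Between CD11c-positive and CD11c-negative NASH cells 3 T cell markers were higher and 1 lower (median 0.04). Natural killer cell markers (5 of 5) summed to 3.75 to 3.85, 2.22 to 2.39 and 5.60 to 5.91, but singly 3 of the 5 were higher and 1 lower in CD11c-positive NASH than in wildtype cells, and 2 higher and 3 lower in CD11c-negative NASH cells. Conventional dendritic cell markers (8 of 9) summed to 102 to 112, 44.9 to 50.6 and 79.3 to 88.4. Of these 8, 7 were higher in CD11c-positive than in CD11c-negative NASH cells (median 2.10) and 7 were lower in CD11c-negative NASH than in wildtype cells (median -1.34), as were Tlr3 and Irf4 in both comparisons. The part of these cells in the interferon values was not tested. Macrophage markers (6 of 7) summed to 925 to 1011, 1179 to 1268 and 951 to 1043 in these groups. Singly 2 of these 6 were higher and 3 lower in CD11c-positive NASH than in wildtype cells, and 3 higher and 2 lower in CD11c-negative NASH cells.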

How the data were processed

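The members and the gene lists were chosen with earlier results of these data known. RNA of 15 samples was labelled with Cy3 and read on one-colour Agilent arrays. Per the file headers, the deposited scanner files hold the processed intensity of each spot, background-subtracted, from Agilent Feature Extraction (10.7.3.1, per the submitters' processing notes). The deposited table of log2 values was found to be the log2 intensity after subtraction of each array's 75th percentile and of each probe's wildtype median (median absolute difference 0.00146). It was used only as an alternative.

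Control spots and outlier spots (113 to 190 per array) were left out, log2 was taken and spots of a probe averaged. The 75th percentile of these probe values was then subtracted on each array. No spot was saturated. Of 55681 probes 26582 were named through RefSeq accessions for 20145 genes. Probes well above background on at least 4 of 5 arrays of a group were kept (17342 named), each gene was read from its brightest kept probe, and 13390 genes remained. Groups were compared with limma 3.58.1 (R 4.3.3), 2-sided, on all 15 arrays with group means, with a threshold of 0.05 on the p adjusted by Benjamini-Hochberg over all genes. A ± after a log2 fold change is its SE with 5 arrays per group. The script was tested on simulated data. The number of arrays limits the precision.

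Values on every array are given for the 4 largest rises and falls per comparison among members that passed, with at least 1 member per role. From each pathway list the 2 largest rises and falls per comparison are named, and Ifnb1, Ifit3b and other values of a named gene were added after they were seen, as was the comparison of the slides with each other. A gene that this rule names is not reported here. Alternatives were normexp background correction, quantile normalization, other filters, slide and replicate number as blocks, each slide alone, the mean of a gene's probes, other priors, the deposited values, and leaving out each array.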

Additional observations from a re-analysis of the deposited data

Results flagged for a closer look

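Among 102 groups of 5 arrays (34 genes in 3 groups), 2 held an array far from the other four by Dixon's gap test, which chance gives in about 1 of 20 groups. Cmpk2 had a normalized log2 signal of 1.5 on wildtype array 3, where the other wildtype arrays lay between 0.97 and 1.07. Herc6 had -0.31 on CD11c-negative NASH array 3, where the others of that group lay between -0.24 and -0.21. Without that array, the log2 fold change of Herc6 in CD11c-negative NASH against wildtype macrophages was 0.14, against 0.13 with it.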

How the results depend on the processing

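Over the 3 comparisons the 34 genes gave 102 values. Of these, 102 kept their direction and side of the threshold with the deposited values, with a trended and robust prior, with only the compared groups and with probes well above background on all arrays. With normexp correction 94 did, and with slide as a block 93. After quantile normalization 73 did and 12 turned sign. In CD11c-negative NASH against wildtype cells it gave 15 higher and 11 lower genes, with Ifnar2 at -0.08, Irf9 at -0.04, Rtp4 at -0.22 and Trim30a at -0.07. In CD11c-positive NASH against wildtype cells it gave 12 higher and 16 lower, with Ddx58 at -0.04, Ifnar2 at -0.14, Irf9 at -0.06, Isg20 at -0.14, Parp14 at -0.26, Trim25 at -0.13, Trim30a at -0.03 and Xaf1 at -0.08. The shares of all genes higher and lower under this scaling are given above. The cause of these changes was not tested. The mean of a gene's probes turned Xaf1 to 0.83 between the NASH groups, since its probes differ.

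Leaving out each array in turn gave 30 to 32 members called (24 to 25 higher, 6 to 7 lower) and 82 to 84 pathway genes in CD11c-negative NASH against wildtype cells. It gave 19 to 21 (4 to 6 higher, 14 to 16 lower) and 52 to 60 in CD11c-positive against CD11c-negative cells. In CD11c-positive NASH against wildtype cells it gave 26 to 27 (21 to 21 higher, 5 to 6 lower) and 89 to 93. Over all genes, 47.2% to 48.8% were then higher and 27.4% to 28.8% lower in the first of these comparisons. The shares were 27.3% to 31.5% and 21.5% to 24.1% in the second, and 50.1% to 51.7% and 25.5% to 26.7% in the third. With replicate number as a block the members called were 31, 22 and 28. Over all genes 50.5% were then higher and 29.7% lower, 32.7% and 26.6%, and 53% and 27.5%. The numbers were not taken to pair the samples, since the correlations of same-numbered arrays went down to -0.20, and 9 of 15 arrays correlated best with their own number.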
